A study of Arabidopsis thaliana with 50 samples.

Results

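Leaves of 2 Arabidopsis thaliana lines that both carry the pp2a-b'γ lesion were set against each other, the double mutant pp2a-b'γζ (b'γζ) and a complemented b'γ line whose added B'γ copy is driven by P35S, a constitutive viral promoter. For each of the 18231 genes in the authors' deposited table, the log2 fold change of the complemented line against wild type was subtracted from that of b'γζ, so that the shared wild type cancels. A positive difference is a higher level in b'γζ. The comparison rests on 10 of the 50 libraries, 5 apical pools of each line, and each pool held the apical parts of 7 fully expanded rosette leaves of 7-week-old plants of the Col-0 ecotype kept under 8 h of light per day. The study also sampled wild type, b'γ and b'γ sid2 (which adds a mutation of ICS1, needed to make salicylic acid) and the basal parts of the same leaves; each of its 10 groups has 5 pools. Stranded libraries were made from polyadenylated RNA. In bulk leaf RNA, fewer cells of a type and less RNA per cell cannot be told apart.

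Protein phosphatase 2A (PP2A) removes phosphate groups from serine and threonine residues of proteins. A catalytic C subunit sits on a scaffolding A subunit, and one of many regulatory B subunits joins them and steers the enzyme to its targets. The plant B' subunits form a family of their own; B'γ and B'ζ are close relatives, and B'γ is known as a negative regulator of defence and cell death in leaves.

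The table lists genes whose corrected genotype p over all lines was under 0.05, and shares below are shares of these listed genes. Values of single pools were not used here, so the error of a difference was bounded from the deposited p-values: the largest standard error (SE) that they allow is given beside a value, and a gene was said to have risen or fallen where its difference was at least 2-fold (1 on the log2 scale) and passed a test with that largest error. This largest-error test has an adjusted p limit of 0.05 (Benjamini-Hochberg over 25801 genes). It is severe where line effects lie in the apical parts alone, so a gene that misses it may still differ.

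Most listed genes had close values in the apical leaves of the 2 lines. The median difference over all listed genes was -0.01, and 96.5% of genes lay within 2-fold. In all, 413 genes (2.27%) were 2-fold higher in b'γζ and 226 genes (1.24%) were 2-fold lower. Of these, 73 genes rose (0.4%) and 10 genes fell (0.0549%). The 73 risen genes fell into 2 parts: 54 lay in one stretch of chromosome 5, described below, and 19 lay elsewhere in the genome. Of the 29 genes that rose or fell outside that stretch, 20 were 2-fold from wild type in b'γζ alone, 3 in the complemented line alone, 1 in both and 5 in neither; both of these distances are measured from the same wild-type pools.

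**Figure D1:**
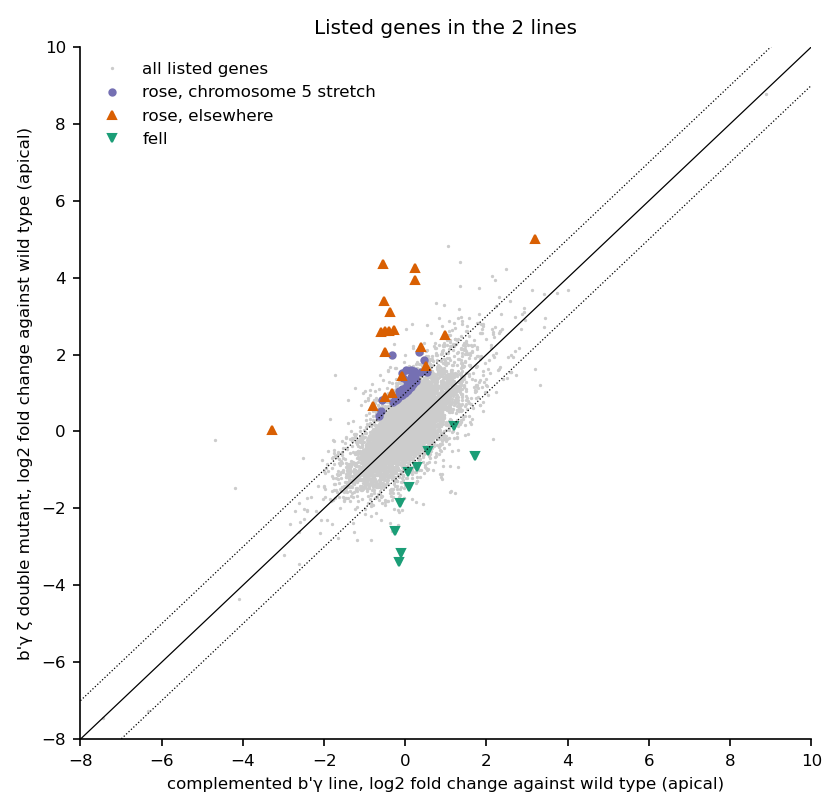
Log2 fold change against apical wild type of every listed gene in the complemented b'γ line (horizontal axis) and in b'γζ (vertical axis), with dotted lines at a 2-fold difference between the lines. The 54 genes that rose in the chromosome 5 stretch form a compact band along the upper dotted line, and most of the other genes that rose stand above it at a complemented value near 0.

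Transcripts of both targeted genes differed between the lines, and another regulatory subunit gene differed more than either of them. B'γ (AT4G15415) had a deposited value of 0.35 in the complemented line and -0.46 in b'γζ, a difference of -0.80 (largest SE 0.06; the authors' p-values allow an adjusted p of at most 6.13e-13), which passed the test but not the 2-fold limit. B'ζ (AT3G21650) stood at -0.26 in the complemented line and at -2.59 in b'γζ and fell by 2.33 (largest SE 0.13; the authors' p-values allow an adjusted p of at most 3.34e-17). B'η (AT3G26020), a more distant B' subunit, stood at -3.28 in the complemented line against 0.05 in b'γζ, so it rose by 3.33 between them (largest SE 0.10; the authors' p-values allow an adjusted p of at most 5.08e-26). The B'η value of b'γζ is the one near wild type, as are the deposited values of b'γ and b'γ sid2, 0.16 and -0.40. It is the low level in the complemented line that sets this gene apart.

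B'α (AT5G03470), a further B' subunit, stood at -0.52 in the complemented line and 0.43 in b'γζ. Its difference of 0.95 (largest SE 0.08; the authors' p-values allow an adjusted p of at most 1.59e-12) passed the test below the 2-fold limit, and the gene lies in the chromosome 5 stretch. Of 19 subunit genes looked up, 17 were listed, with a median difference of -0.03. Of these 1 rose and 1 fell, against 0.4% and 0.0549% of all listed genes. The gene that fell, B'ζ, is the one targeted in b'γζ itself. The remaining B' genes differed little: the next largest difference was 0.25, for B'δ, which did not pass. The scaffolding subunits RCN1, PP2AA2 and PP2AA3 and the catalytic subunits PP2AC1, PP2AC3, PP2AC4 and PP2AC5 all lay within 1.5-fold, and none of them passed. Of all listed genes, 89.9% lay within 1.5-fold. The coding sequences of B'γ and B'ζ are identical at 78.4% of aligned positions in RefSeq (assembly TAIR10.1), and those of B'ζ and B'η at 53.9%, so reads of the first pair are the ones that counting could confuse more easily.

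**Figure D2:**
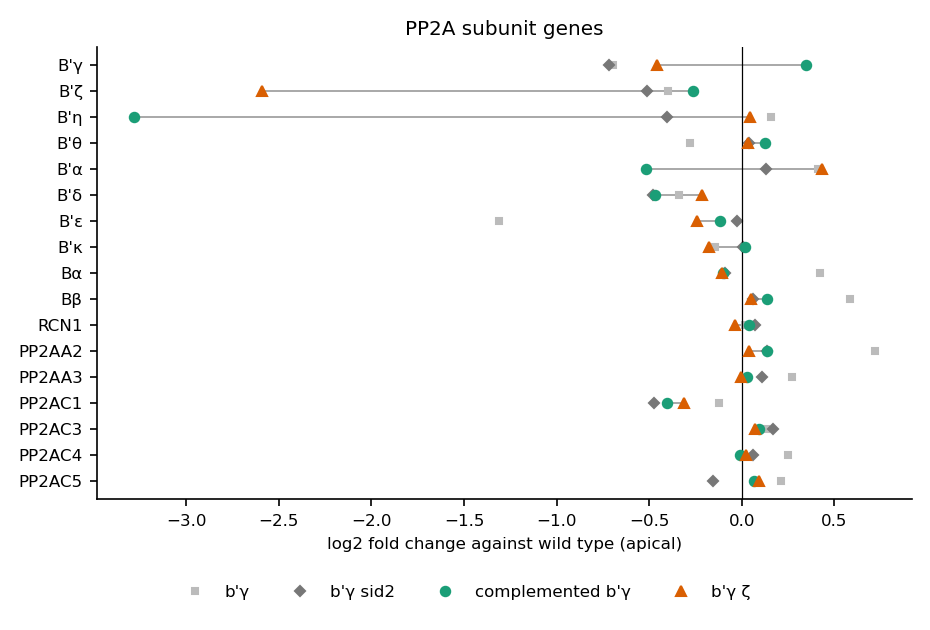
Deposited log2 fold changes against apical wild type (horizontal axis) of the 17 listed PP2A subunit genes in the 4 lines; a grey line joins the complemented line and b'γζ. B'η is low in the complemented line alone, at -3.28, and B'ζ is low in b'γζ alone, at -2.59.

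The 2 genes that fell furthest were a neighbouring pair of the same small family on chromosome 3. PCC1 (AT3G22231, chr3:7845823-7846833 in TAIR10.1), a gene named for its control by pathogens and the circadian clock, stood at -0.11 in the complemented line and -3.17 in b'γζ and fell by 3.06 (largest SE 0.36; the authors' p-values allow an adjusted p of at most 6.09e-08). AT3G22235 (chr3:7854419-7855814), which the table calls an uncharacterized protein, stood at -0.14 and -3.39 and fell by 3.24 (largest SE 0.41; the authors' p-values allow an adjusted p of at most 2.43e-07). Both were above wild type in b'γ and b'γ sid2, at 0.41 and 0.46 for PCC1 and at 0.73 and 0.50 for AT3G22235, so b'γζ is the one line of the 4 in which either gene is low. The next family member along, AT3G22240, had values of 0.53 in the complemented line and 0.63 in b'γζ, a difference of 0.10 that did not pass.

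The 250 bases before the annotated start of each of the 3 genes are shown because the pair that fell shares a block that their neighbour lacks. They read 5′ to 3′ on the minus strand from the TAIR10.1 assembly of RefSeq, and capitals mark every match to TGACG, the core bound by TGA-type bZIP factors, on either strand (CGTCA on the other).
PCC1 (chr3:7846834-7847083): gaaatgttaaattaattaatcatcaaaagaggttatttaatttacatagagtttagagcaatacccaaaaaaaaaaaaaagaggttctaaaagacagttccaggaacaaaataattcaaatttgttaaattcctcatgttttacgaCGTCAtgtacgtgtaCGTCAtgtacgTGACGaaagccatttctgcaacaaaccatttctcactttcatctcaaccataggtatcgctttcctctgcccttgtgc
AT3G22235 (chr3:7855815-7856064): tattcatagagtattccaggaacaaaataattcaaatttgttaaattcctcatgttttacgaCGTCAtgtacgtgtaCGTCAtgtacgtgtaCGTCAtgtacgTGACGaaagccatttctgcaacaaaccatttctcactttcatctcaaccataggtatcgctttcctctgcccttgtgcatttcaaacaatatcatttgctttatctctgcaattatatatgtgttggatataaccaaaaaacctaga
AT3G22240 (chr3:7864896-7865145): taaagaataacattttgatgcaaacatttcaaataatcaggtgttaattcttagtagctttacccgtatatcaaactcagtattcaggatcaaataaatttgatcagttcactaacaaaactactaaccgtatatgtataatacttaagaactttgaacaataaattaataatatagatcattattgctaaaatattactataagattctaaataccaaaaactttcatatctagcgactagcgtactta

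The upstream sequences of PCC1 and AT3G22235 share an identical block of 105 bases, whereas neither shares more than 9 bases in a row with AT3G22240. TGACG occurs 3 times before PCC1, 4 times before AT3G22235 and not at all before AT3G22240. Among the windows of this length before 27443 protein-coding genes, 18.6% hold TGACG at least once, 0.583% at least 3 times and 0.106% at least 4 times. The other motifs searched on both strands, the evening element AAAATATCT, the W-box core TTGAC and the G-box CACGTG, are in none of the 3 windows; they are in 2.36%, 44.9% and 6.49% of all such windows. TGACG can overlap the W-box core in TTGACG. A match is a description of the letters only. The coding sequences of PCC1 and AT3G22235 are identical at 79.3% of aligned positions. Those of AT3G22235 and AT3G22240 are closer, at 86.3%, and those of PCC1 and AT3G22240 are identical at 69.4%. The split of reads among the 3 genes is therefore uncertain, most of all between AT3G22235 and AT3G22240.

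PCC1 lies 221.7 kb from B'ζ on the same chromosome. The 28 listed genes between them had a median difference of -0.035 and ranged from -0.99 to 0.89, and none was 2-fold changed. Within the cluster itself, the pseudogenes AT3G22232 and AT3G22237, on the strand opposite to the coding genes, had differences of 1.4 and 1.5 that did not pass.

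The other 7 genes that fell had smaller differences and varied roles. BOP2 (AT2G41370), a BTB and ankyrin-repeat co-regulator of leaf and organ boundary patterning, fell by 1.73 (largest SE 0.36), from -0.13 in the complemented line to -1.86 in b'γζ, and it stood at -1.04 in b'γ and -1.76 in b'γ sid2. AGO7, the argonaute that works with miR390 in making trans-acting small RNAs, fell by 1.07 (largest SE 0.25), from 0.57 to -0.50, and was close to 0.57 in the other mutants too, at 0.54 in b'γ and 0.63 in b'γ sid2. The low AGO7 value was therefore that of b'γζ. ATARP9, an actin-related protein, fell by 1.06 (largest SE 0.12) and AT1G47265 by 2.37 (largest SE 0.33), in each case from a value above wild type in the complemented line, 1.19 and 1.73. AT1G47265 shared one lowest value of -0.67 in b'γ and b'γ sid2, beside -0.64 in b'γζ, so its difference starts from the bottom of the scale. AT4G16745, an exostosin family gene, fell by 1.55, AT3G58150, an OPA3 family gene, by 1.22, and AT1G52800, a 2-oxoglutarate-dependent oxygenase gene, by 1.14.

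Outside chromosome 5's stretch, the genes that rose furthest were transposon-related or little known. AT5G28335, which has no description in the table, stood at -0.55 in the complemented line and 4.35 in b'γζ and rose by 4.90 (largest SE 0.52; the authors' p-values allow an adjusted p of at most 5.03e-09). AT3G33076, a transposable element gene, rose by 4.02 (largest SE 0.49; the authors' p-values allow an adjusted p of at most 1.14e-07), from 0.23 to 4.25. Both were near wild type in b'γ, at 0.003 and 0.55, and in b'γ sid2, at -0.36 and -0.06, so their high values belong to b'γζ alone. AT1G49920, of the MuDR transposase family, rose by 3.92 (largest SE 0.47), from -0.51 to 3.40, and was high in b'γ sid2 as well, at 4.14, but not in b'γ, at 0.65.

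Transposable element genes as a class were spread in both directions. Of 234 listed, 12 were 2-fold higher (5.13%, against 2.27% of all listed genes) and 14 were 2-fold lower (5.98%, against 1.24%). Of the 234, 2 rose and 0 fell, against 0.4% and 0.0549% of all listed genes, and the median difference was -0.02. The other one that rose, AT3G60170, was far above wild type in both lines, at 3.19 in the complemented line and 5.01 in b'γζ (difference 1.81; largest SE 0.40), and at 7.47 in b'γ. No gene of the mitochondrial or plastid genome is in the table, 0 of 18231.

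A second set of risen genes had high values in all 3 lines without the transgene. FLC (AT5G10140), the MADS-box repressor of flowering, stood at -0.49 in the complemented line and 2.08 in b'γζ and rose by 2.57 (largest SE 0.18; the authors' p-values allow an adjusted p of at most 3.33e-14). Its deposited values were 1.75 in b'γ and 2.22 in b'γ sid2. AT4G00250, a storekeeper-related DNA-binding protein gene, rose by 3.71 (largest SE 0.55) and the pseudogene AT1G30940 by 3.18 (largest SE 0.59). AT4G07940, which its deposited description calls an uncharacterized protein, rose by 3.47 (largest SE 0.49).

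The F-box gene AT5G60610 (difference 3.11, largest SE 0.38), the RING-type ubiquitin ligase gene ARI3 (AT3G27710, 3.01, largest SE 0.44) and AT4G29760 (2.91, largest SE 0.41) rose likewise. The deposited description calls AT4G29760 an uncharacterized protein. In b'γ the deposited values of these last 6 genes lay between 2.62 for AT4G29760 and 3.81 for AT4G07940, and in b'γ sid2 between 2.45 for AT1G30940 and 3.53 for AT4G00250. All 6 were within 0.61 of wild type in the complemented line, the farthest being AT1G30940 at -0.61. Further F-box genes rose, AT4G22390 by 1.52 and AT5G56370 by 1.33; with AT5G60610 that makes 3 of the 252 listed F-box genes outside the stretch, of which 10 were 2-fold higher (3.97%) and 7 were 2-fold lower. Of all 18067 listed genes outside the stretch, 19 rose, 1.88% were 2-fold higher and 1.25% were 2-fold lower.

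Among the smaller rises, WRR4, an intracellular TIR-NBS-LRR receptor named for white rust resistance, rose by 1.19 (largest SE 0.27), from 0.50 in the complemented line to 1.69 in b'γζ. Its values in b'γ and b'γ sid2 were 0.49 and 0.64, so b'γζ stood above the other 3 lines. TOP3A, a DNA topoisomerase III gene, rose by 1.53, AT4G29770, whose coding sequence is identical to that of AT4G29760 at 65.9% of aligned positions, by 1.80, AT3G29639 by 1.45 and AT3G14890, a polynucleotide phosphatase/kinase gene, by 1.39.

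**Figure D3:**
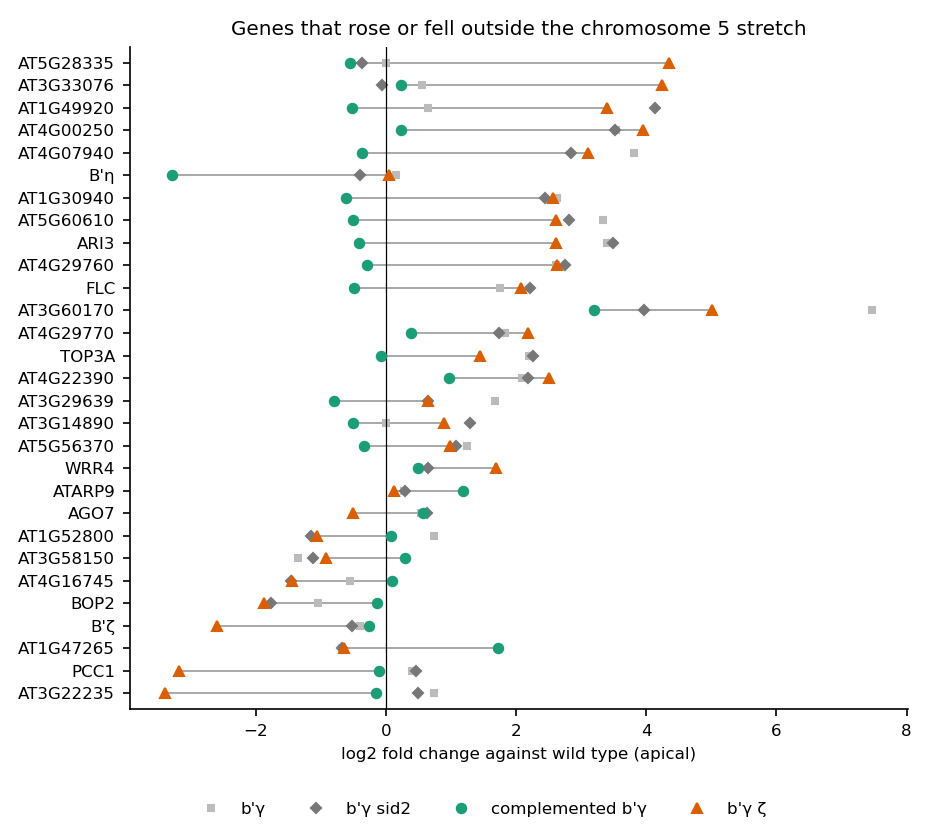
Deposited log2 fold changes against apical wild type (horizontal axis) of the 29 genes that rose or fell outside the chromosome 5 stretch, in order of the difference between b'γζ and the complemented line, which a grey line joins. AT5G28335 and AT3G33076 are high and PCC1 and AT3G22235 low in b'γζ alone, while FLC, AT4G00250 and ARI3 are high in b'γ, b'γ sid2 and b'γζ and near 0 in the complemented line.

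A stretch of chromosome 5 differed as a block between the 2 lines. Its ends, AT5G03406 and AT5G05250, were taken from earlier results of these data, so the block as a whole is described and not tested. In TAIR10.1 it spans 718.7 kb (chr5:839754-1558486) and holds 203 annotated protein-coding genes, and 164 of its genes are listed. The median difference was 0.99, or close to 2-fold, and the quartiles lay at 0.87 and 1.09. In 157 of the 164 the value was above 0, 73 were 2-fold higher (44.5%, against 2.27% of all listed genes) and 1 was 2-fold lower. Gene by gene, 110 (67.1%) passed the largest-error test whatever their size, against 169 of all 18231 listed genes. In the stretch 54 rose (32.9%, against 0.4% of all listed genes).

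Because the ends were taken from earlier results of these data, a step at them was partly fixed by that choice. Single genes next to the ends blur it. AT5G03380 before the stretch differed by 0.87, and AT5G05270 and AT5G05300 after it by 1.02 and 1.15, none past the test. The 20 listed genes before the stretch had a median difference of -0.004 and none was 2-fold higher, and the 20 after it had a median of 0.12, with 2 genes 2-fold higher. The highest running median over 31 neighbouring listed genes was 1.06, at AT5G04980. Away from the stretch, running medians stayed between -0.20 and 0.16 on all 5 chromosomes. Within it the median value was 0.01 in the complemented line and 1.0 in b'γζ, and 0.96 in b'γ and 1.02 in b'γ sid2, so the complemented line is the one at the wild-type level.

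**Figure D4:**
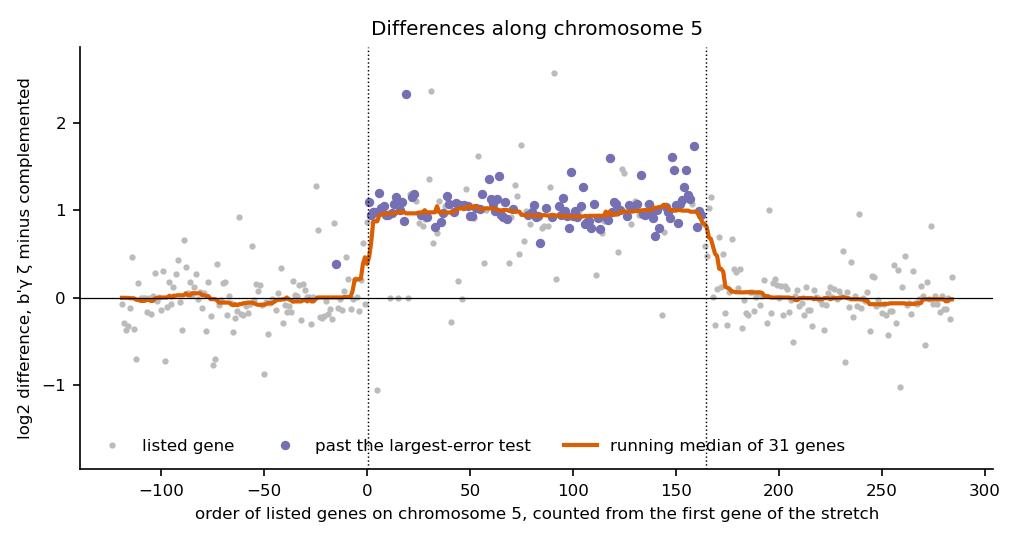
Log2 difference between b'γζ and the complemented line (vertical axis) of listed genes in chromosomal order, from 120 genes before the stretch to 120 after it; filled points passed the largest-error test and the line is the running median of 31 genes. The median goes from about 0 to about 1 near the first dotted line and back near the second, ends that were taken from earlier results of these data.

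The stretch holds genes of unrelated roles, and most of them sat close to the common shift. CTR1, the kinase that holds ethylene signalling in check, differed by 0.86 (largest SE 0.09), just under the 2-fold limit. DPB, a partner of E2F cell-cycle factors, differed by 0.95. SDP1, the triacylglycerol lipase that mobilises seed oil, rose by 1.12, and CESA3, a cellulose synthase of the primary wall, by 1.13.

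A few members stood above the shift. NAMT1, a methyltransferase gene, had the largest difference of the stretch, 2.56 (largest SE 0.71), which did not pass, nor did AT5G03670, at 2.36, and AT5G04210, at 1.75. With an error that takes basal line differences to be as large as apical ones, NAMT1 and AT5G03670 passed and AT5G04210 did not. ATIPS2 (AT5G03545), a non-coding transcript of the phosphate starvation response, rose by 2.33 (largest SE 0.50), from -0.34 in the complemented line to 1.99 in b'γζ, with 2.13 in b'γ sid2 but -0.07 in b'γ. AT5G05190, which its deposited description calls an uncharacterized protein, rose by 1.74, and CPK1, a calcium-dependent protein kinase gene, by 1.4 (largest SE 0.20). ADR1-L2, a helper NLR immune receptor gene, rose by 1.59 (largest SE 0.34, the authors' p-values allow an adjusted p of at most 0.0054). The cystatin-related pair AT5G05040 and AT5G05060 rose by 1.60 and 1.45, but their coding sequences are identical at 94.8% of aligned positions and the split of reads between them is uncertain.

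Among genes grouped by role, the largest shift was in genes that respond within minutes to touch and wounding. Of the 27 lists, which hold 467 listed genes, this one had the highest median: 9 of its 15 listed genes (21 looked up) were 2-fold higher in b'γζ, 0 were 2-fold lower and 14 lay above 0, with a median of 1.04. Over all listed genes 2.27% were 2-fold higher and 1.24% lower, and the median was -0.01. The lists were chosen with earlier results of these data known, so the touch and wound list as a whole is described and not tested. The list stood above wild type in both lines, with a median of 0.70 in the complemented line and 1.31 in b'γζ. Its median was also 1.31 in b'γ and was 0.46 in b'γ sid2, so a level like that of b'γζ is not particular to it. No member passed the largest-error test, and none passed with an error that takes basal line differences to be as large as apical ones (the equal-parts error). PHI-1, a phosphate-responsive cell-wall protein gene, had values of 1.36 and 4.42 (difference 3.06; largest SE 1.47).

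ERF109, an early jasmonate and wound response factor, had 1.36 in the complemented line and 3.78 in b'γζ (difference 2.43; largest SE 0.92). WRKY53, a factor of senescence and defence, differed by 1.5, the calmodulin-like gene CML37 by 1.29, WRKY33 by 1.18 and WRKY40 by 1.17. The touch gene TCH2 differed by 1.01 and ERF104 by -0.23.

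Cell-wall loosening genes, expansins and xyloglucan transferases (XTH), were the next list by its count of genes. Of 21 listed, 5 were 2-fold higher (23.8%, against 2.27% of all listed genes) and 0 were 2-fold lower (against 1.24%). The median difference was 0.32 and no member passed the test. XTH18 had 0.76 in the complemented line and 3.34 in b'γζ (difference 2.58; largest SE 1.5). The other 4 were XTH25, at 1.83, XTH23, at 1.46, XTH33, at 1.31, and XTH19, at 1.28. XTH33 shared one lowest value of -1.98 in b'γ and b'γ sid2, beside -1.56 in the complemented line and -0.25 in b'γζ. The XTH33 difference may therefore start from near the bottom of the scale. Each of the 5 is a transferase, and the expansin with the largest difference, EXPA3, had -0.60.

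In the list of CBF factors and cold-regulated genes, 3 of 15 listed genes were 2-fold higher (against 2.27% of all listed genes) and 0 were 2-fold lower (against 1.24%), with a median difference of 0.40. All 3 were transcription factors. No gene of this list rose or fell. DDF1, a dwarfing factor that acts on gibberellin levels under salt stress, had 1.06 in the complemented line and 4.84 in b'γζ (difference 3.78, largest SE 1.29). It missed the test with the largest error and with the equal-parts error. Its relative DDF2 had 0.01 and 2.67 (difference 2.66), which missed the largest-error test and passed with the equal-parts error, and CBF4 differed by 1.33. DDF2 stood at 0.0 in b'γ and 0.23 in b'γ sid2, so its difference may start from near the bottom of the scale. The core cold factors had small differences, at -0.25 for CBF1, 0.27 for CBF2 and -0.24 for CBF3, and their target COR15A differed by 0.43.

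Jasmonate genes differed at single members, against a background of 2.27% of all listed genes 2-fold higher and 1.24% lower. Among JAZ repressors, which jasmonate both degrades and induces, 2 of 13 listed (15.4%) were 2-fold higher, JAZ7 by 1.75 (2.48 in the complemented line and 4.23 in b'γζ) and JAZ8 by 1.74, and 0 were lower. In the jasmonate response list 4 of 19 (21.1%) were 2-fold higher and 0 lower, led by the defensin gene PDF1.2a at 1.92 (largest SE 1.27), with a median of 0.00. In jasmonate synthesis and breakdown 1 of 19 (5.26%) was 2-fold higher, LOX4 at 1.23, and 1 was 2-fold lower, the 12-hydroxyjasmonate sulfotransferase gene ST2A at -1.37. No gene of these 3 lists passed.

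In immunity, 4 of 27 listed receptor and signalling genes were 2-fold higher (14.8%, against 2.27% of all listed genes) and 0 lower (against 1.24%). Of these 1 rose, ADR1-L2 of the chromosome 5 stretch, against 0.4% of all listed genes. PROPEP3, a danger peptide precursor gene, differed by 1.57, its receptor gene PEPR1 by 1.03 and the kinase gene MPK11 by 1.04, of which PEPR1 passed with the equal-parts error. Salicylic acid and systemic resistance genes were not 2-fold changed in any of 32 cases, with a median of -0.01. Of all listed genes, 96.5% lay within 2-fold, so this list was close to the share over all genes. PR1, the usual marker of the salicylic acid response, had values of -0.12 and 0.80 (difference 0.92; largest SE 1.94) and BSMT1, which methylates salicylic acid, had the largest difference in size of this list, -0.94.

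Other lists held 1 or a few 2-fold changed genes, none past the largest-error test, where 2.27% of all listed genes were higher and 1.24% lower. Among 24 indole glucosinolate and camalexin genes 2 were higher, CYP81F2 at 1.04 and the regulator MYB51 at 1.04, and CYP81F4 was lower at -1.31. Auxin response genes (15 listed) had IAA6 higher at 1.60, past the test with the equal-parts error, and GH3.3 lower at -1.34. ACS11, of ethylene synthesis (14 listed), was higher at 1.83, and the abscisic acid hydroxylase gene CYP707A3 (15 listed) at 1.37.

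F3H of flavonoid synthesis (9 listed) was higher at 1.1 and the antenna gene LHCB1.4 (18 listed) at 1.07. F3H stood at -1.25 in the complemented line and -0.15 in b'γζ, and LHCB1.4 at -1.92 and -0.85, so neither was above wild type. The nitrate reductase gene NIA1 (11 listed in the phosphate and nitrate list) was lower at -1.33, with 0.27 in the complemented line and -1.06 in b'γζ. In the antenna list 17 of 18 genes lay above 0, with a median of 0.23.

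Genes of the main processes of a working leaf had small differences, as most listed genes did. Of all listed genes, 96.5% lay within 2-fold and 89.9% within 1.5-fold. All 35 listed genes of photosystems, electron transport and the Calvin cycle lay within 1.5-fold, with a median of 0.04 and a largest difference of 0.22, for PSBQ2. None was 2-fold changed among 18 clock genes (largest RVE8, 0.57), 22 leaf senescence genes (WRKY22, 0.98), 13 heat shock genes, 20 aliphatic glucosinolate genes, 18 genes of oxidative and mitochondrial stress, 9 of the activated methyl cycle, 16 aquaporins and 10 of iron and copper homeostasis. Among 15 endoplasmic reticulum folding genes 14 lay below 0, with a median of -0.23 and a lowest value of -0.33, for CNX1. The 7 listed reference genes had a median of 0.002 and lay between -0.13 for UBQ10 and 0.24 for ACT8.

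**Figure D5:**
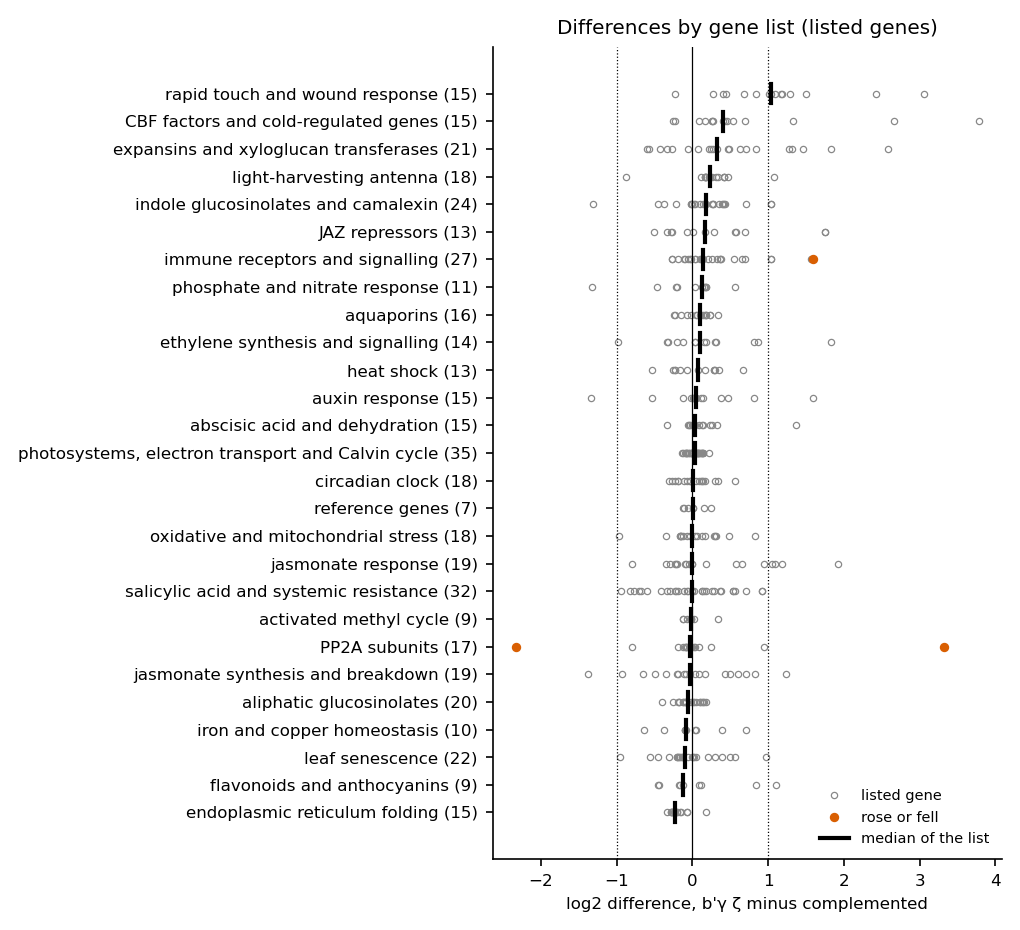
Log2 difference between b'γζ and the complemented line (horizontal axis) of every listed gene of 27 lists, the number listed in parentheses; black bars are medians, filled points rose or fell, and dotted lines mark 2-fold. The rapid touch and wound list has its median at 1.04, and the medians of 16 lists lie within 0.1 of 0.

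The defining genes of leaf mesophyll were all listed, and 6 of 6 lay within 1.5-fold (against 89.9% of all listed genes), with a median of -0.04. Of 28 marker genes of 7 other cell types, 25 were listed, 1 was 2-fold higher, 1 was 2-fold lower and 0 passed the test. Over all listed genes 2.27% were 2-fold higher and 1.24% lower. The higher one was CDKB1;1 of dividing cells, at 1.22, and the lower one was AP3 of flowers, at -1.32. All 3 listed markers of dividing cells lay above 0 and all 5 of guard cells below 0, the latter between -0.30 and -0.06. Levels are not part of the table, so no summed level of a marker list can be given. The part that cell makeup plays in the differences above was not tested.

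The authors' interaction p, which asks over all lines whether line differences depend on the leaf part, was under 0.05 after correction in 148 of the 639 genes that were 2-fold changed (23.2%) and in 42.4% of all listed genes. Line values of the basal parts were not used here.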

How the data were processed

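Polyadenylated RNA was sequenced from 50 pools. Per the submitters' processing notes, bcl2fastq and DESeq were used with build TAIR10; versions, aligner and counter are not given in the sources used here. The authors' deposited table holds 18231 genes with 4 log2 fold changes against apical wild type and, for genotype, tissue and interaction, a raw and a corrected p-value over all lines. The log base is not named there; low values that repeat 1 doubling in 1 of 5 libraries above a recurring step fit base 2 in 21 cases, natural logs in 3 and log10 in 9 (within 0.0003). Depth is unknown, so no interval from counts is given.

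The difference of 2 deposited log2 fold changes was taken per gene. Raw genotype and interaction p-values became F values with 4 and 40 degrees of freedom, which, with the 4 fold changes (line means within 20 log2 units), bound the residual variance from above; a contrast with this largest error was adjusted by Benjamini-Hochberg over the 25801 genes the authors tested. It assumes equal variances and a two-way analysis that ignores that the 2 parts of a leaf share a pool number. The scripts were tested on simulated data. RefSeq TAIR10.1 matched 18153 gene IDs.

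Named genes are B'γ, B'ζ, B'η and B'α, the 12 largest rises and all 10 falls, the 5 largest differences of the chromosome 5 stretch, and for each list up to 4 called members or, with none, the largest; other members are named where a group is described, and DPB, SDP1, CESA3, CPK1, WRR4 and the smaller rises were chosen after their values were seen. The members, lists and tests were chosen with earlier results of these data known. Used were Python 3.11.15, numpy 2.4.6, pandas 2.3.3, scipy 1.17.1 and biopython 1.88.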

Additional observations from a re-analysis of the deposited data

How the results depend on the processing

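With a size limit of 1.5-fold, 1144 genes were higher and 698 lower, 145 rose and 16 fell; with 4-fold the counts were 37, 18, 12 and 4. Without the chromosome 5 stretch 19 genes rose. With the equal-parts error 122 rose and 37 fell, and 5 list genes rose. With no size limit 147 and 22 passed. With the smallest error the p-values allow, an alternative chosen after seeing the data, 229 rose and 108 fell, and 1 touch and wound gene rose in place of 0. The other alternatives for these counts stayed within 1.5 times: a corrected genotype p or an adjusted p under 0.01, centring on reference genes (median 0.002) or all genes (median -0.008), leaving out genes at the floor, and adjustment over listed genes alone. The stretch's median was 0.98 after centring on the reference genes, and its highest running median was 1.11 over 15 genes and 1.02 over 61. Of 62 named genes, 3 passed only with the equal-parts error. No paired analysis was possible because no values per pool were used, and leaving out each replicate was not run for the same reason. Depth is unknown, so what it limits was not tested. Before adjustment, 706 genes had a largest-error p under 0.05.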

Other observations

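Flowering-time and organ-patterning genes were looked up after FLC was seen to rise and BOP2 to fall, so both of these were in the list because of their values. Of 19 looked up, 15 are listed, and apart from FLC and BOP2 the 2-fold changed members were TSF and CO, both lower, where 2.27% of all listed genes were higher and 1.24% lower. TSF, a florigen relative of FT, stood at 0.15 in the complemented line and -1.20 in b'γζ (difference -1.35; largest SE 0.52), and SOC1, a floral integrator that FLC represses in textbook accounts, stood at -0.08 and -0.93 (difference -0.85; largest SE 0.27), neither past the test. CO, a photoperiod factor, stood at 2.61 and 1.56 (difference -1.05), and was at 3.26 in b'γ sid2. The FLC relatives MAF1, MAF2 and MAF3 had differences of -0.01, -0.05 and 0.02, and MAF4 had 0.81, not past the test.

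Groups formed from words of the deposited gene descriptions, also after the values were seen and without the chromosome 5 stretch, gave these counts, where 1.88% of all listed genes outside the stretch were 2-fold higher and 1.25% were lower. Of 81 ethylene-responsive transcription factor genes, 8 were 2-fold higher and 0 lower, and of 83 calcium-binding or calmodulin genes 7 were higher and 0 lower. Of 141 genes described by NBS or disease resistance, 9 were higher and 0 lower, with a median of 0.11. WRR4, a receptor of that class that rose, is outside this count because its description lacks those words. Of 46 genes described by WRKY, 5 were higher and 1 lower, of 137 pseudogenes 6 were higher and 2 lower, and of 20 genes described by xyloglucan 5 were higher and 0 lower. Both listed genes of the Phosphate-responsive 1 family, PHI-1 and EXO, were 2-fold higher, EXO with 0.17 in the complemented line and 2.80 in b'γζ (difference 2.62). Of the genes in these counts, 1 passed the largest-error test, the pseudogene AT1G30940.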
